A study of Mus musculus with 2 samples.

Results

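The BTG/TOB genes *Btg1*, *Btg2*, *Btg3*, *Tob1* and *Tob2* and the GADD45 genes *Gadd45a*, *Gadd45b* and *Gadd45g* encode growth arrest proteins. They were taken by gene symbol from the deposited FPKM values (fragments per length of transcript, adjusted for depth) of mouse lung cancer cells, and they are 8 of 23183 listed genes. In the library labelled KPR_restored, 5 of the 8 genes were higher by at least 0.5 on the log2 scale than in the library labelled KPR-, 1 was lower by as much, and 2 lay between. The higher genes were *Gadd45a*, *Btg2*, *Tob1*, *Btg1* and *Btg3*, and the lower gene was *Gadd45b*. Among the 11231 genes expressed in these cells (taken as an FPKM of 1 or more, averaged over both libraries), 12.1% were at least 0.5 higher and 9.29% at least 0.5 lower.

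KPR- is an immortalized line from a lung cancer of a mouse with 1 *K-Ras* LSL-G12D allele, a *Runx3* flox/FSF genotype, floxed *p53* alleles (flox/flox), a Tomato* reporter and FlpERT2. In the mouse an adenovirus with Cre recombinase under the CMV promoter switched on oncogenic *K-Ras* and removed *p53* and the floxed *Runx3* allele, so that both libraries share these lesions. The Frt-Stop-Frt cassette keeps the remaining *Runx3* allele silent until 4-hydroxytamoxifen (4-OHT) activates the FlpERT2 recombinase, which converts KPR- into KPR_restored cells. The sample records list the KPR- library as RUNX3 -/- at 0 h and the KPR_restored library as RUNX3 -/+ at 16 h, and they give 1 μM 4-OHT for both, whereas in the study's text 4-OHT is the step that separates the states. How many lines or clones stand behind the libraries is not given in the sources used here. Poly(A)-selected RNA was sequenced as 1 library per condition, so no difference has a replicate check. *Runx3* restoration cannot be told apart from the hours in culture. If only the KPR_restored cells received 4-OHT, it cannot be told apart from 4-OHT exposure and FlpERT2 activation either.

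Low FPKM values lay on steps of whole fragments, from which the depth (21.8 M fragments in KPR- and 22.4 M in KPR_restored) and the number of fragments behind each gene were estimated. The 95% intervals given with values cover counting error only. *Runx3* itself was at 0.348 FPKM in KPR- and 0.349 FPKM in KPR_restored (about 28 and 29 fragments). The log2 difference of 0.007 had a counting interval of -0.79 to 0.81, so a difference in *Runx3* RNA was not detectable at this depth. An FPKM per gene cannot single out RNA of the restored allele, so the labels were not checked by it. The epithelial markers *Krt8*, *Krt18*, *Krt19*, *Epcam* and *Cdh1* were abundant in both libraries, while 5 of the 12 lung epithelial markers, among them the surfactant genes *Sftpa1*, *Sftpb* and *Sftpc*, were listed at 0 in both. *Krt7* was at 1229 FPKM in KPR- and 743 FPKM in KPR_restored. The summed FPKM of 12 lung epithelial markers was 6110 in KPR- and 5369 in KPR_restored, and that of 8 fibroblast markers was 1790 and 1469, of which *Vim* made up 1777 and 1464. The only other expressed fibroblast marker, *Col1a1*, had 12.2 FPKM in KPR- and 4.21 FPKM in KPR_restored, a log2 difference of -1.53. *Dcn* (0.173 and 0.742 FPKM) and *Pdgfra* (0.273 and 0.363 FPKM), both low, went the other way. The 7 leukocyte markers summed to 3.13 and 6.79 FPKM, nearly all from *Cd68*, with 0 and 1 fragment of *Ptprc*. The 5 endothelial markers summed to 1.16 and 2.22 FPKM, mostly *Kdr*. The part of these markers in the results was not tested, and in bulk RNA fewer cells with a transcript and less of it per cell cannot be told apart.

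BTG and TOB proteins share an amino-terminal BTG domain that binds the deadenylases CNOT7 and CNOT8 of the CCR4-NOT complex. Through this contact they speed the shortening of poly(A) tails and the decay of mRNAs, and they hold cells back from entering S phase. GADD45 proteins are small acidic stress sensors that bind PCNA, the CDK inhibitor p21, the CDK1-cyclin B complex and the kinase MAP3K4, and are known for G2/M arrest, for p38 and JNK signalling and for DNA repair. Several of these genes are immediate-early or stress-induced genes, and *Btg2* and *Gadd45a* are well known p53 targets.

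All 8 genes count as expressed, with a mean FPKM between 4.96 and 46.3. FPKM is scaled to transcript length, so levels can be compared between genes as far as the lengths used for the scaling hold. The counting intervals take a single transcript length per gene and do not cover error in it. In KPR- the highest members were *Gadd45b* with 32.9 FPKM and *Btg1* with 30.9 FPKM, whose counting intervals overlapped. *Tob1*, *Tob2* and *Gadd45g* followed with 23.3, 18.5 and 15.2 FPKM, each outside the interval of the next. *Btg3* and *Gadd45a* had 6.54 and 6.52 FPKM, which counting error does not separate, and *Btg2* was lowest with 2.27 FPKM. Among expressed genes *Gadd45a* stood at percentile 28.9 in KPR- and 66.8 in KPR_restored, and *Btg1* at 73.7 and 87.2. In KPR_restored the order was led by *Btg1* with 61.7 FPKM and *Tob1* with 46.7 FPKM. *Tob2*, *Gadd45a* and *Gadd45b* lay together at 24.5, 24.4 and 22.8 FPKM, with overlapping intervals between neighbours. *Gadd45g* and *Btg3*, at 13.7 and 12.0 FPKM, also overlapped, and *Btg2* was again lowest with 7.65 FPKM.

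**Figure D1:**
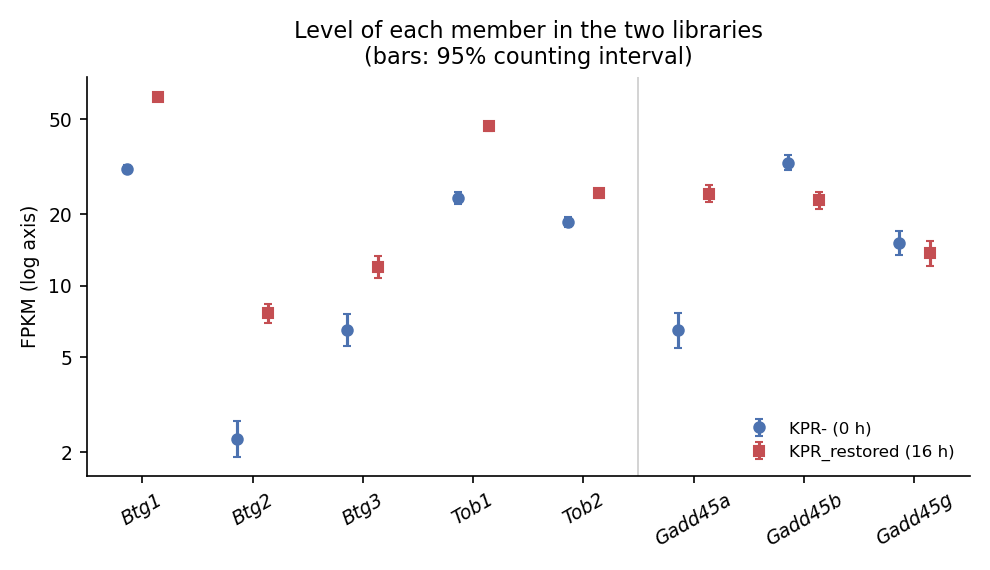
FPKM (log axis) of each BTG/TOB and GADD45 gene in the KPR- library (circles) and the KPR_restored library (squares), with 95% counting intervals as bars. The 5 BTG/TOB genes and *Gadd45a* lie higher in KPR_restored, *Gadd45b* lies lower, and the intervals of *Gadd45g* overlap.

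The promoter sequences of the genes with the largest differences are shown so that their upstream letters can be compared. They are the 250 bases before the RefSeq start site on GRCm38.p6, in the direction of the gene. *Gadd45a* is read from chr6:67037408-67037657 (minus strand), *Btg2* from chr1:134079156-134079405 (minus strand), *Btg1* from chr10:96616751-96617000 (plus strand) and *Tob1* from chr11:94211204-94211453 (plus strand). Capitals mark CCAAT (the CCAAT box) and TGACG (shared by binding sites of the CREB and ATF factors) on either strand.
Gadd45a: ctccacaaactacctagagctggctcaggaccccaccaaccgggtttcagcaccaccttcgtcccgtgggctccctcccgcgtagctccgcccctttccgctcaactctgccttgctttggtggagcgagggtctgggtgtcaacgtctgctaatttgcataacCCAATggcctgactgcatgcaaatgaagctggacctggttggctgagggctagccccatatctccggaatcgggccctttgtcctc
Btg2: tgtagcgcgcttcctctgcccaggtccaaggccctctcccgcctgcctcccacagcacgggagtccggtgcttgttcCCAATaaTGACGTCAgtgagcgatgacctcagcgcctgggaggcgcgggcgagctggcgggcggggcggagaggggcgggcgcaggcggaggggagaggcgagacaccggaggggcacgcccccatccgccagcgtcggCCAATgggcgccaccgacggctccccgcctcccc
Btg1: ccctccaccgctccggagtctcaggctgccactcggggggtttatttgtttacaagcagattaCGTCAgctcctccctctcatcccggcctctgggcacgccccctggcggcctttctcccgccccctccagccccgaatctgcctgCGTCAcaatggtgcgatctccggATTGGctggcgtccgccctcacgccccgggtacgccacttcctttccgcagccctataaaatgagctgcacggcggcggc
Tob1: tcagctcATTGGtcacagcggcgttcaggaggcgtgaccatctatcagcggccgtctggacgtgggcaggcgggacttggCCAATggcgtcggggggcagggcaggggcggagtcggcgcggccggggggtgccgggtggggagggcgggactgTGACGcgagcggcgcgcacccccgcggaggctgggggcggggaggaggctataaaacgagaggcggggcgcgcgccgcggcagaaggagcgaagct

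All 8 genes matched the RefSeq table, with 9 windows because *Btg3* has 2 start sites. The *Tob2* window, 81858327 to 81858576 of chromosome 15, lies within the annotated span of the gene, 81848272 to 81858796. A *Btg3* window, 78376811 to 78377060 of chromosome 16, also lies within its gene's span. For these windows all letters therefore lie inside the annotated gene and not before it. The windows of *Gadd45a* and *Gadd45b* and the other *Btg3* window, 78377182 to 78377431, run partly into the annotated spans of their genes. CCAAT or its reverse complement was found in windows of 7 of the 8 genes, all except *Tob2*, and in 35.6% of the 10973 promoters of expressed genes. The GC box letters GGGCGG were found for 7 of the 8 genes, all except *Gadd45g*, and in 59.8% of those promoters. TGACG was found for 3 genes, *Btg1*, *Btg2* and *Tob1*, and in 27.3% of those promoters. In *Btg2* it is part of the full cAMP response element TGACGTCA, at positions -166 to -159 counted from the start site, which 2.67% of those promoters hold. TGATGNAA, the core of ATF4 composite sites, was found only for *Gadd45g* among the 8 genes and in 1.90% of those promoters. The letters TGTGGT and TGCGGT, which RUNX proteins recognise, were in none of the member windows and in 10.5% and 7.37% of those promoters. The AP-1 letters TGANTCA were also in none of the member windows and in 4.53% of those promoters. CACGTG, the E-box of MYC, was found for *Gadd45b* and *Gadd45g* (8.52% of those promoters) and TATAAA for *Btg1*, *Tob1*, *Gadd45b* and *Gadd45g* (6.03%). All letters were searched on both strands, and each TGACGTCA also counts as TGACG. A match of letters is a description of the window and not a bound site.

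*Gadd45a* encodes the founding GADD45 protein, a stress-induced inhibitor of the CDK1-cyclin B kinase. The gene spans 67035096 to 67037457 of chromosome 6 (GRCm38, minus strand), and its transcript has 4 exons and 1223 bases. *Gadd45a* was at 6.52 FPKM in KPR- (about 144 fragments) and at 24.4 FPKM in KPR_restored (about 553 fragments). It was 3.73-fold higher in the library labelled KPR_restored, a log2 difference of 1.90 (counting interval 1.63 to 2.18). Among the 11231 expressed genes, 63 had a difference at least this large, *Gadd45a* included. 238 bases of the transcript are shared with exons of *E230016M11Rik* on the opposite strand, which had 0.471 FPKM in KPR- and 1.37 FPKM in KPR_restored. Whether the authors' counting used strand is not given in the sources used here, so reads of this stretch cannot be told apart.

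*Gadd45b*, also known as *Myd118* and a target of NF-κB and TGF-β signalling, was lower in KPR_restored. It spans 80930073 to 80932204 of chromosome 10 (plus strand), with a transcript of 4 exons and 1284 bases. *Gadd45b* was at 32.9 FPKM in KPR- (about 770 fragments) and at 22.8 FPKM in KPR_restored (about 549 fragments). The log2 difference was -0.53 (counting interval -0.69 to -0.37), which excludes 0 but includes the threshold of -0.5. In all, 940 genes, *Gadd45b* included, had a difference this low or lower.

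*Gadd45g*, the third GADD45 gene and known as *CR6*, spans 51846678 to 51848468 of chromosome 13 (plus strand). It was at 15.2 FPKM in KPR- (about 285 fragments) and at 13.7 FPKM in KPR_restored (about 265 fragments). The log2 difference of -0.15 had a counting interval of -0.39 to 0.10, so a difference was not detectable at this depth. *Gadd45g* was the only member whose interval spanned 0.

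The make-up of the GADD45 transcripts differed more than their sum. The summed FPKM of the family was 54.6 in KPR- and 60.9 in KPR_restored, 1.12-fold higher. *Gadd45a* made up 11.9% of the summed FPKM in KPR- and 40.0% in KPR_restored. The share of *Gadd45b* was 60.2% in KPR- and 37.4% in KPR_restored, and that of *Gadd45g* was 27.8% and 22.5%. *Gadd45b* was thus the leading GADD45 transcript in KPR-, whereas in KPR_restored *Gadd45a* and *Gadd45b* lay within each other's counting error.

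**Figure D2:**
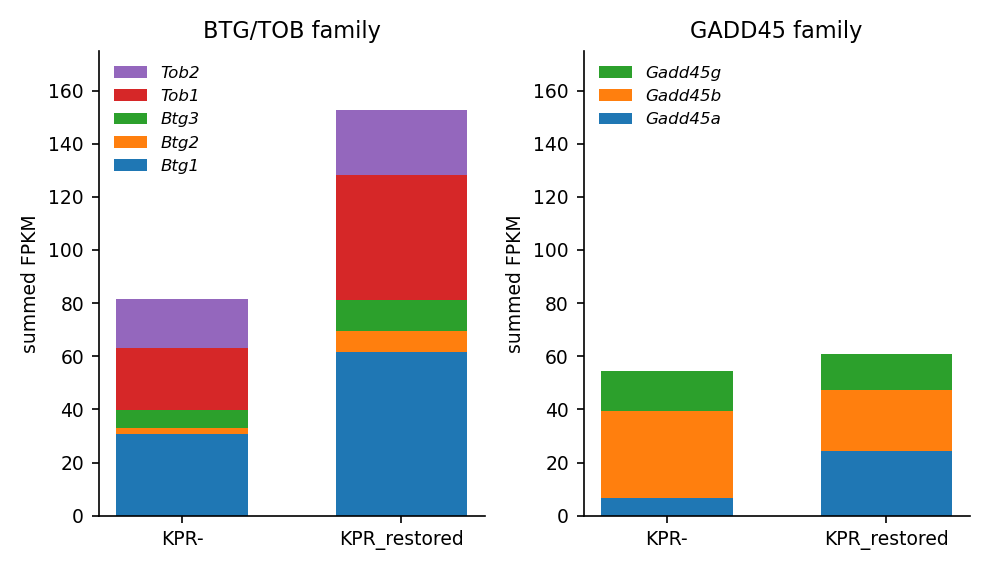
Summed FPKM of the BTG/TOB family and of the GADD45 family in the KPR- and KPR_restored libraries, each bar stacked by gene (axis from 0). The BTG/TOB sum is 81.6 and 152.5 FPKM with similar proportions, whereas the GADD45 sum is 54.6 and 60.9 FPKM with a larger *Gadd45a* segment in KPR_restored.

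In the BTG/TOB family all 5 genes were higher in the library labelled KPR_restored, 4 of them by 0.5 or more. The median difference of the family was 1.00, beside a median of 0.0086 over all expressed genes. The summed FPKM was 81.6 in KPR- and 152.5 in KPR_restored, 1.87-fold higher. The proportions within the family differed less than those of GADD45, with *Btg1* at 37.9% and 40.5% of the sum and *Tob1* at 28.6% and 30.6%.

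*Btg2*, also called *TIS21* and *Pc3*, is an early response gene that marks cells leaving the cycle in several tissues. It spans 134075170 to 134079120 of chromosome 1 (minus strand) with 2 exons. *Btg2* was at 2.27 FPKM in KPR- (about 126 fragments) and at 7.65 FPKM in KPR_restored (about 434 fragments). This is 3.36-fold higher in KPR_restored, a log2 difference of 1.75 (counting interval 1.46 to 2.04), and 85 genes had a difference at least this large, *Btg2* included. *Btg2* held 2.79% of the summed BTG/TOB FPKM in KPR- and 5.01% in KPR_restored, so the member with the largest difference in its family remained its least abundant.

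*Btg1*, the closest relative of *Btg2* and a gene associated with quiescent cells, was the most abundant member in KPR_restored. It spans 96617006 to 96622809 of chromosome 10 (plus strand) with 2 exons and a long 3′ UTR of 4166 bases. *Btg1* was at 30.9 FPKM in KPR- (about 3229 fragments) and at 61.7 FPKM in KPR_restored (about 6624 fragments). The log2 difference was 1.00 (counting interval 0.94 to 1.06), with the narrowest interval of the 8 genes, and 328 genes had a difference at least as large, *Btg1* included. The X-linked *Btg1* copies listed as *Btg1-ps1* and *Btg1-ps2* were at 0 in both libraries, where 3 fragments would have given 0.223 FPKM (KPR-) and 0.217 FPKM (KPR_restored) for *Btg1-ps1* and 0.140 and 0.136 FPKM for *Btg1-ps2*.

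*Tob1* encodes a larger family member that binds the poly(A)-binding protein PABPC1 as well as the deadenylase. It spans 94211454 to 94215495 of chromosome 11 (plus strand). *Tob1* was at 23.3 FPKM in KPR- (about 1057 fragments) and at 46.7 FPKM in KPR_restored (about 2174 fragments). The log2 difference was 1.00 (counting interval 0.89 to 1.11), so that *Tob1* and *Btg1* differed by the same amount within counting error, and 325 genes had a difference at least as large as that of *Tob1*, itself included.

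*Btg3*, also called *ANA*, spans 78332637 to 78377192 of chromosome 16 (minus strand) and has 5 exons. It was at 6.54 FPKM in KPR- (about 172 fragments) and at 12.0 FPKM in KPR_restored (about 324 fragments). The log2 difference was 0.88 (counting interval 0.60 to 1.15). Its span overlaps *Cxadr* on the opposite strand, but its transcript shares no exon bases with it.

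*Tob2*, the closest relative of *Tob1*, spans 81848272 to 81858796 of chromosome 15 (minus strand). It was at 18.5 FPKM in KPR- (about 1590 fragments) and at 24.5 FPKM in KPR_restored (about 2161 fragments). The log2 difference of 0.40 was the smallest of the family, and its counting interval of 0.31 to 0.50 excluded 0. This interval lay apart from those of the other BTG/TOB genes, but with fragments computed from the shortest transcripts it was 0.11 to 0.70 and overlapped that of *Btg3*, 0.26 to 1.55. The share of *Tob2* in the family sum was 22.7% in KPR- and 16.05% in KPR_restored. *Tob2* shares 207 bases of exon with *Gm49476* on the opposite strand, which was not analysed here.

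*Btg4*, the family member known from oocytes and not among the 8 genes, was at 0.0828 FPKM (about 2 fragments) in KPR- and at 0 in KPR_restored, where 3 fragments would have given 0.105 FPKM. No fold is given for it.

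**Figure D3:**
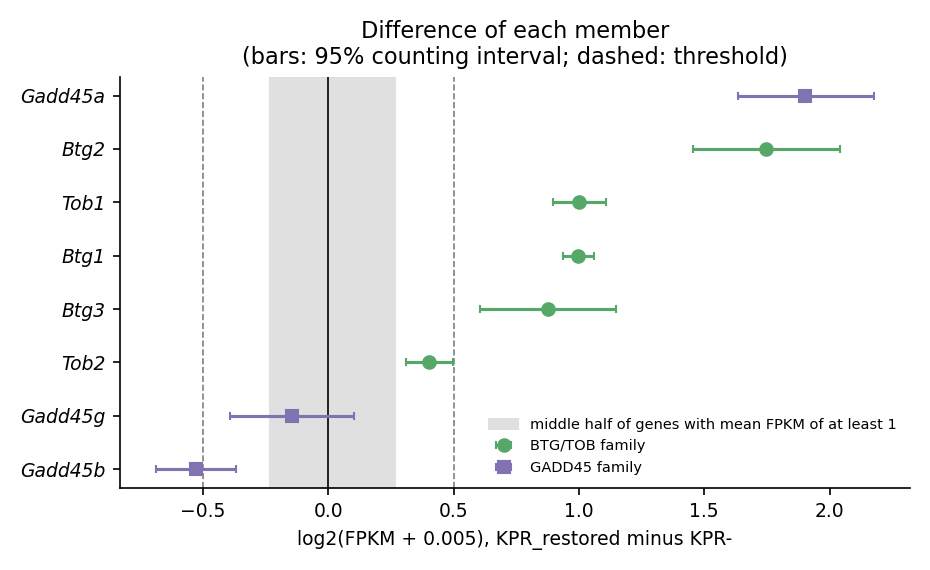
Difference of each gene in log2(FPKM + 0.005), KPR_restored minus KPR- (horizontal axis), with 95% counting intervals; dashed lines mark 0.5 and -0.5 and the grey band is the middle range (-0.23 to 0.27, quartiles) of the 11231 expressed genes. *Gadd45a* and *Btg2* stand farthest right at 1.90 and 1.75, and *Gadd45b* is farthest left at -0.53.

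Of the 8 genes, 6 had a counting interval above 0, 1 had an interval below 0 and 1 spanned 0. This is read against a wide background, because at this depth 34.3% of the 10791 expressed genes with a fragment estimate had an interval above 0 and 33.1% had an interval below 0. A difference of at least 1 was found for 3 of the 8 genes, against 2.89% of expressed genes, and one of -1 or less for 0 of the 8, against 1.38%. The smallest of the 3, *Tob1* at 1.00083, was under 1 with each other pseudocount and scaling (0.967 to 0.998), which leaves *Gadd45a* and *Btg2*. Over all 23183 listed genes, 13.8% were at least 0.5 higher and 12.9% at least 0.5 lower. The members were chosen with earlier results of these data known, so these counts describe them and do not test them.

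**Figure D4:**
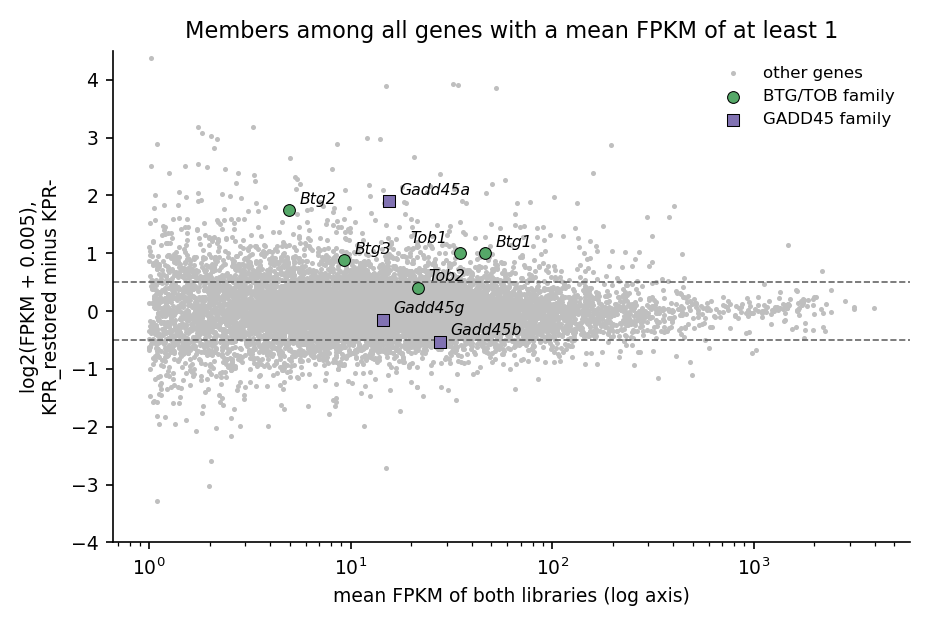
Difference in log2(FPKM + 0.005), KPR_restored minus KPR-, against the mean FPKM of both libraries (log axis) for expressed genes (mean FPKM of 1 or more), where 20 genes lie outside the vertical range. *Gadd45a* and *Btg2* stand near the upper edge of genes of similar level, and *Tob2* and *Gadd45g* lie within the bulk.

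Gene structure and 3′ UTR letters, which were not used to choose the genes, are given as a description. The 8 genes are compact, with 2 to 5 exons, while the median of 10527 expressed genes with a coding RefSeq transcript was 9 exons and 27.1% of them had 5 exons or fewer. ATTTA, the core of AU-rich elements that mark short-lived mRNAs, occurred 11 times in the 3′ UTR of *Btg1*, 5 times in that of *Btg2*, 4 times each in those of *Btg3* and *Tob2* and 3 times in that of *Tob1*. All 5 BTG/TOB genes thus held at least 3, as did 36.8% of the 10527 genes. *Gadd45a* held 2, and *Gadd45b* and *Gadd45g* held 0. The longer TATTTAT occurred for *Btg2*, *Btg3*, *Tob2* and *Gadd45a*, 4 of the 8 genes, and for 29.7% of the 10527 genes. These counts also depend on the length of the 3′ UTR, which ran from 439 bases in *Btg3* to 4166 bases in *Btg1*.

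The genes nearest to *Gadd45a* in the plane of log2(FPKM + 1) of both libraries were *Cxcl2*, a neutrophil chemokine, with 6.31 FPKM in KPR- and 23.1 FPKM in KPR_restored, and *Sprr2e* with 5.501 and 23.5 FPKM. Those nearest to *Btg2* were *Hr* with 2.32 and 6.798 FPKM and *Tubb3*, a neuronal tubulin gene, with 2.56 and 8.25 FPKM. This likeness rests on 2 libraries.

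Of 18 genes of the CCR4-NOT complex, other deadenylases, poly(A)-binding proteins and *Prmt1*, all expressed, 0 were at least 0.5 higher and 2 (11.1%) at least 0.5 lower. The median difference was -0.04. Among all expressed genes 12.1% were at least 0.5 higher and 9.29% at least 0.5 lower, so the share of lower genes was near that background. The 18 genes include the partners through which BTG and TOB proteins act on mRNA. *Cnot1*, the scaffold of the complex, had 35.8 FPKM in KPR- and 23.6 FPKM in KPR_restored, a log2 difference of -0.60. *Cnot6*, a catalytic subunit, had 35.3 and 24.5 FPKM, a log2 difference of -0.53. The largest differences upward were those of *Cnot11* and *Cnot4*, both 0.25. The deadenylases that the BTG domain binds were close to level, with 28.9 and 30.7 FPKM for *Cnot7* and 27.8 and 31.5 FPKM for *Cnot8*, log2 differences of 0.09 and 0.18. *Prmt1*, an arginine methyltransferase that binds BTG1 and BTG2, had 233 FPKM in KPR- and 185 FPKM in KPR_restored, a log2 difference of -0.34.

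Of 8 genes for proteins that bind AU-rich elements, 1 was at least 0.5 higher and 0 were at least 0.5 lower, with a median of -0.05. The 1 higher gene is 12.5% of the list, near the 12.1% of expressed genes. *Zfp36*, which encodes tristetraprolin, had 7.34 FPKM in KPR- and 11.1 FPKM in KPR_restored, a log2 difference of 0.60. Its relative *Zfp36l2* had 90.5 and 119.8 FPKM, a log2 difference of 0.40. *Khsrp* and *Tial1* had log2 differences of -0.26 each.

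Of 11 kinase genes of the MAP3K4, p38 and JNK branch that GADD45 proteins act on, 0 were higher and 1 was lower by 0.5 or more. This 1 gene is 9.09% of the list, near the 9.29% of expressed genes, and the list median was -0.03. The lower gene was *Map3k4*, the kinase that GADD45 proteins bind, with 9.07 FPKM in KPR- and 5.41 FPKM in KPR_restored, a log2 difference of -0.74 (counting interval -0.89 to -0.60). *Map2k3*, which activates p38, had 39.2 and 28.9 FPKM, a log2 difference of -0.44. *Mapk11* and *Mapk13*, which encode p38 kinases, had log2 differences of 0.37 and 0.26.

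Of 6 cell cycle partners of GADD45 proteins, 1 (16.7%, beside 12.1% of expressed genes) was higher and 0 were lower by 0.5 or more. *Cdkn1a*, which encodes p21, had 14.2 FPKM in KPR- and 39.6 FPKM in KPR_restored, a log2 difference of 1.48. *Cdk1* and *Ccnb2*, which encode parts of the mitotic kinase, had log2 differences of -0.19 and -0.25, and *Gadd45gip1*, for a GADD45-binding protein, had 0.07. Of 6 DNA demethylation genes, 5 were expressed, of which 0 were higher and 1 (20%, beside 9.29% of expressed genes) was lower. The lower gene was *Tdg*, a DNA glycosylase, with 15.2 and 10.6 FPKM and a log2 difference of -0.52, whose counting interval of -0.65 to -0.39 includes the threshold and which was -0.48 with a pseudocount of 1. *Tet2*, *Apex1* and *Tet3* had log2 differences of 0.47, 0.21 and -0.21.

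The 9 genes of G1 cyclins, their kinases and *Rb1* included 0 that were higher and 3 that were lower by 0.5 or more. The 3 lower genes are 33.3% of the list, beside 9.29% of expressed genes, and the list median was -0.27. *Ccnd1*, the cyclin D1 gene that BTG and TOB proteins are known to repress, had 331 FPKM in KPR- and 203 FPKM in KPR_restored, a log2 difference of -0.71 (counting interval -0.74 to -0.68). *Ccne2* had 4.42 and 1.89 FPKM, a log2 difference of -1.22, and *Ccne1* had 12.0 and 6.97 FPKM, a log2 difference of -0.78. *Rb1* and *Ccnd2* had log2 differences of 0.33 and 0.12.

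Of 20 genes for factors known to act on BTG, TOB or GADD45 genes, RUNX genes included, 16 were expressed. Among these 16, 7 (43.8%, beside 12.1% of expressed genes) were at least 0.5 higher and 0 at least 0.5 lower. *Ddit3*, which encodes CHOP, had 12.3 FPKM in KPR- and 52.8 FPKM in KPR_restored, a log2 difference of 2.11. *Atf4*, a stress response factor that acts on *Gadd45a*, had 145 and 446 FPKM, a log2 difference of 1.62. *Egr1* had 0.830 and 2.28 FPKM, from about 51 and 144 fragments, a log2 difference of 1.45. The others were *Relb* with 1.07, *Foxo3* with 0.53, *Rela* with 0.52 and *Foxo1* with 0.51, of which the last 3 lie just past the threshold and fell short of it with upper quartile scaling, which left 4. *Brca1* and *Runx2* had log2 differences of -0.37 and -0.38. *Trp53* had 2.12 and 2.17 FPKM, a log2 difference of 0.03, and *Trp63* and *Trp73* were listed at 0 in both libraries. Cre removed the floxed *p53* in the cells of both libraries, and an FPKM per gene does not tell whether the *Trp53* RNA is intact.

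Of 10 other genes named for growth arrest, 8 were expressed, of which 3 (37.5%) were higher and 2 (25%) were lower by 0.5 or more. The shares of all expressed genes were 12.1% and 9.29%. *Ppp1r15a*, which encodes GADD34, had 7.85 FPKM in KPR- and 28.9 FPKM in KPR_restored, a log2 difference of 1.88 close to that of *Gadd45a*. *Gas6* had 0.518 and 1.86 FPKM (about 26 and 98 fragments), and *Gas8* had 23.9 and 37.1 FPKM, a log2 difference of 0.63. The lower genes were *Gas1* with 15.3 and 10.2 FPKM and *Gas2* with 4.00 and 2.51 FPKM, log2 differences of -0.59 and -0.67.

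**Figure D5:**
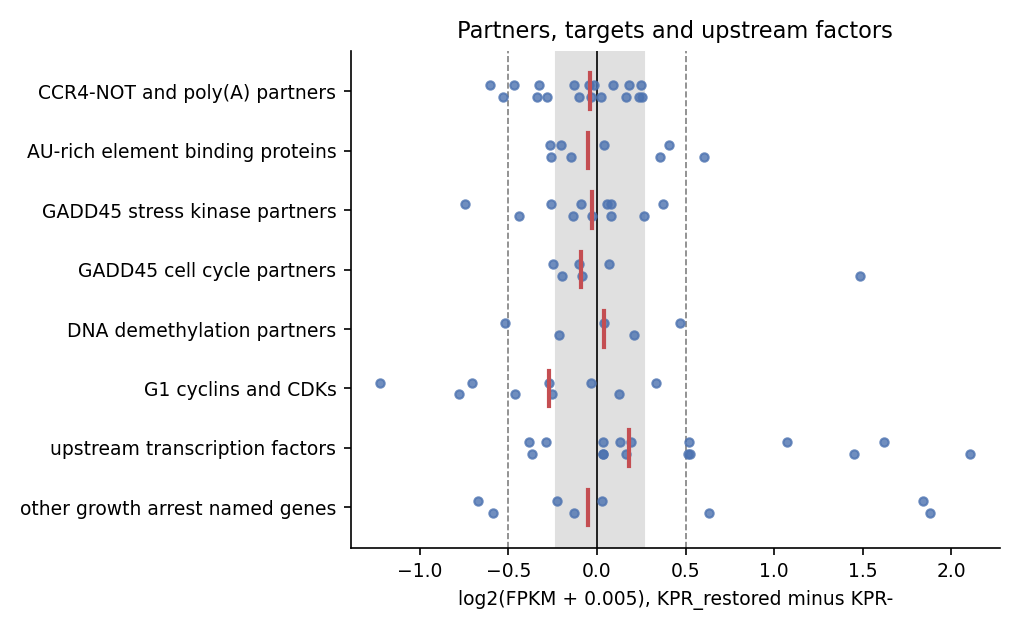
Differences in log2(FPKM + 0.005), KPR_restored minus KPR-, of the expressed genes in each partner, target or upstream list (points), with list medians as red bars, the threshold as dashed lines and the quartile range of all genes in grey. The G1 list has the lowest median, -0.27, and the upstream factors the highest, 0.18.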

How the data were processed

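Total RNA of KPR- and KPR_restored cells was made into poly(A)-selected, directional libraries, 1 per condition, and sequenced as paired-end reads. The authors trimmed the reads, mapped them using TopHat to mm10 and deposited FPKM values estimated using Cufflinks, 1 per gene and library for 23183 genes. Tool versions are not given in the sources used here. FPKM depends on the transcript lengths that Cufflinks used and pools all transcripts of a gene.

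Differences were computed as log2(FPKM + 0.005), KPR_restored minus KPR-, with a threshold of 0.5, both inferred from the study's gene values since its text states neither. This understates the difference of genes near the pseudocount. With 1 library per condition no test was run. Depth and a mean fragment length of 210 bases were estimated from the steps of low FPKM values of genes with a single transcript of at least 600 bases (536 genes in KPR- and 548 in KPR_restored with 0.5 to 5.5 estimated fragments, of which 80.2% and 82.5% lay within 0.1 of a whole number), with GENCODE M21 transcripts on GRCm38, the build that mm10 names. Fragments per gene were rounded, using the longest transcript with a RefSeq counterpart. The 95% intervals are exact, Clopper-Pearson for differences and Poisson for levels, and both cover counting error only. The estimate was tested on simulated data with 1 known transcript length per gene, so that test does not cover the lengths that Cufflinks used. Of the 128 list entries, 128 matched a row, 1 of them (*Cnot9*) through a synonym.

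The members and gene lists were chosen with earlier results of these data known. The genes named are the 8 members and *Btg4*, in each list the 2 largest differences each way in log2(FPKM + 1), *Runx3*, *Trp53*, *Ccnd1*, *Atf4* and *Egr1*, and the 2 genes nearest to each of the 2 members with the largest difference upward. *Cnot7*, *Cnot8*, *Prmt1*, *Ccne1*, *Gas8*, *Col1a1*, *Dcn*, *Pdgfra*, the other upstream factors, the *Btg1* copies and overlapping genes were named after their values were seen. Alternatives were scaling to equal totals (TPM) or equal upper quartiles, centring on the median gene, pseudocounts of 0.1 and 1, a threshold of 1, filters on mean FPKM and shorter transcripts. Promoter sequences are from RefSeq, GRCm38.p6. No protein sequence was used. Scripts ran in Python 3.11.15 with scipy 1.17.1, pandas 2.3.3, matplotlib 3.10.9 and numpy 2.4.6.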

Additional observations from a re-analysis of the deposited data

How the results depend on the processing

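With a threshold of 1, 3 of the 8 genes were higher and 0 were lower, 2 of the BTG/TOB genes were higher and 0 of the GADD45 genes were lower. *Btg1* was just short of this threshold, and *Tob1*, just past it, was under it (0.967 to 0.998) with each other pseudocount and scaling. All other alternatives left the counts at 5 higher genes and 1 lower gene, and the median of the 8 genes lay between 0.88 and 0.94. For single members, 39 of 40 values under other pseudocounts and scalings stayed within the counting interval, the exception being *Btg2* with a pseudocount of 1, at 1.40. Of 184 alternative values for the lists, 13 moved, and a change of sign was not scored for them. A count was scored as moved when it changed by more than 1.5 times, or to or from 0. The median of the DNA demethylation list changed sign, from 0.04 to -0.09, with a mean FPKM of at least 5 and with no filter on low values. With a pseudocount of 1, 0 DNA demethylation genes were lower (*Tdg* at -0.48). With the upper quartile scaling, 4 of the upstream factors were higher. Centring and scaling moved the median of all genes by at most 0.034 in size. With fragments computed from each gene's shortest transcript (350 bases or more), the interval of *Btg3*, from about 33 and 63 fragments, was 0.26 to 1.55 and that of *Tob2* 0.11 to 0.70, so that they overlapped and both included 0.5. No paired analysis was possible because each condition has 1 library. Depth limits *Gadd45g*, the placing of *Gadd45b* against the threshold and, with the shortest transcripts, that of *Btg3* and *Tob2*, and the absence of replicates limits every difference.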
